A study of Homo sapiens with 6 samples.

Results

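CSF1R, the receptor of macrophage colony-stimulating factor, was followed together with its ligands CSF1 and IL34 and the related receptors CSF2RA, CSF2RB and CSF3R. These 6 genes were taken by symbol from a deposited table of 55765 genes. CSF1R was chosen by its measured fold change between the groups compared here, so its values are given as a description, without a test. The other 5 were taken for their roles beside it. Counts were found for 4 of the 6 genes, 3 passed the filter on low counts and were tested (CSF1R, CSF2RB and CSF3R), and CSF1 and CSF2RA were listed at 0 in all 6 libraries.

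The cells were OCI-AML2, an established human line from acute myeloid leukaemia, and the labels speak of clones grown from single cells. The treated group (3 libraries) received 100 nM MRT199665 for 48 h, and the control group (3 libraries) received the vehicle for the same 48 h, with no other agent or genetic change named for either group. MRT199665 is named as an inhibitor of the MARK kinases, and SIK kinases are further known targets of it. Messenger RNA was sequenced from its 3′ ends, so a count stands for a transcript end and not for a length of transcript. Whether replicates were cultured apart is not stated, and p-values reflect only the scatter among these libraries, which could be technical in origin.

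Total counts ranged from 5871097 to 14308650 per library, MRT199665 replicate 2 being the shallowest. That library and vehicle replicate 2 lay at opposite ends of the first principal component, which held 46.8% of the variance but left the groups mixed. The second component held 26.3% and had the groups apart. On it the vehicle libraries lay at -35.3, -0.954 and -12.4 and the MRT199665 libraries at 26.4, 5.94 and 16.3. Myeloid markers were present, with means of 65.1 and 89.7 CPM (counts per 1000000 of a library's scaled total) for MPO and of 65.7 and 68.0 CPM for SPI1 in vehicle and MRT199665. CEBPA and CD34, which many myeloid leukaemias express, were listed at 0 in all 6 libraries. The summed level of 10 defining myeloid markers was 534 to 547 CPM with vehicle and 578 to 634 CPM with MRT199665, and its part in the results below was not tested. Most of that sum was PTPRC, a gene of all leukocytes, with means of 372 and 405 CPM and overlapping groups. Of the 8 markers tested, edgeR, DESeq2 and limma-voom called 0, while 5 were higher and 1 lower at an unadjusted p under 0.05 (7.64% and 7.11% of all tested genes), the lower one being ANPEP with means of 1.72 and 0.937 CPM. Markers of other cells were few or did not separate the groups. The sums were 6.96 to 9.35 against 6.80 to 9.47 CPM for 7 B cell genes and 79.8 to 85.2 against 74.6 to 82.8 CPM for 11 T and NK cell genes, of which NCAM1 gave most. They were 1.85 to 3.35 against 2.57 to 5.07 CPM for 11 erythroid and megakaryocyte genes and 2.75 to 3.05 against 2.84 to 5.58 CPM for 8 stromal and epithelial genes. Among 16 granulocyte genes the sums were 939 to 1460 against 1130 to 1461 CPM. Of these 16, 11 were tested and only CEACAM6 was called, where 0.850% of all tested genes rose and 0.398% fell at an adjusted p under 0.05. CEACAM6 fell from 25.2 ± 1.96 to 14.3 ± 1.07 CPM (SD, n = 3 per group, edgeR adjusted p = 0.0263). Its call ended when any library but vehicle replicate 1 was left out (highest adjusted p = 0.177, without vehicle replicate 3). T cell gene CD2, B cell gene MS4A1, globin gene HBB and collagen gene COL3A1 were at 0 in all libraries.

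CSF1R is a receptor tyrosine kinase of the type III family, to which KIT, FLT3 and the PDGF receptors also belong. Binding of CSF1 or IL34 pairs the receptor chains and starts signalling through PI3-kinase, ERK and Src family kinases, which supports survival, growth and maturation of monocytes and macrophages. In the myeloid lineage its gene is switched on as progenitors turn to the monocyte path, and PU.1, RUNX1 and C/EBP factors are known to bind its promoter and an intronic enhancer. CSF2RA and CSF2RB form the GM-CSF receptor, and CSF3R is the G-CSF receptor. These are cytokine receptors without a kinase domain, which signal through Janus kinases.

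RefSeq gives CSF1R 2 start regions, and they are shown because a count from the 3′ end does not tell from which of them a transcript began. The windows of CSF3R, the related receptor with the most counts, stand beside them for comparison. Each runs 5′ to 3′ on the gene's strand from 250 bases before a transcript start to 50 after it, in build GRCh38.p14. Capitals mark matches on either strand to 6 short motifs. GAGGAA is a core of ETS factor sites such as those of PU.1. The core of RUNX sites searched was TGTGGT, and a part of C/EBP sites was searched as TTGCAA. The AP-1 site was searched as TGANTCA, the SP1 site as GGGCGG and the TATA box as TATAAA. Where they overlapped, the capitals run together. The windows of CSF2RA were also searched but are not shown here, and CSF1, IL34 and CSF2RB could not be searched because no window was available for them.
CSF1R upstream start, chr5:150113316-150113615, minus strand: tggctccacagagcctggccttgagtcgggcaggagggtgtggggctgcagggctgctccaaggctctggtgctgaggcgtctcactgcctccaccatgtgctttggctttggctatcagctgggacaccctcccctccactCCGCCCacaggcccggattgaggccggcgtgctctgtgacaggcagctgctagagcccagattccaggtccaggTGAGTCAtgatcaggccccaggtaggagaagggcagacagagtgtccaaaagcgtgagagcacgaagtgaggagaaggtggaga
CSF1R downstream start, chr5:150086505-150086804, minus strand: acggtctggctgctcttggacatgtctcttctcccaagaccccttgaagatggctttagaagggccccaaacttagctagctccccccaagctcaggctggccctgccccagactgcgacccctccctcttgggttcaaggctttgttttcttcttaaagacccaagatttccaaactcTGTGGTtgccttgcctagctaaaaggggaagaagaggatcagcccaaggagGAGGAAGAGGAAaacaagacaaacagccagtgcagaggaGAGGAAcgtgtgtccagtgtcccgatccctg
CSF3R upstream start, chr1:36483265-36483564, minus strand: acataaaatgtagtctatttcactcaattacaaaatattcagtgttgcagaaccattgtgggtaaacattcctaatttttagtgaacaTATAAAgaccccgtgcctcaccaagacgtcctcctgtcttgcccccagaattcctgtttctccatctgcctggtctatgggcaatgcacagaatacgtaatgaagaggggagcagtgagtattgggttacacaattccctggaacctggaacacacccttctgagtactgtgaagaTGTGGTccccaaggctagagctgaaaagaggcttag
CSF3R downstream start, chr1:36482864-36483163, minus strand: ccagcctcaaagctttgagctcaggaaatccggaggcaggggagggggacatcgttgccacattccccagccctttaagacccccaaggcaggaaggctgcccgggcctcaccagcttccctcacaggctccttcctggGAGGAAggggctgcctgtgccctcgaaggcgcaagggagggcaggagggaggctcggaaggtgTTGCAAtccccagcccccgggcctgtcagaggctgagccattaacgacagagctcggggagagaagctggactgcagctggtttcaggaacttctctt

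The downstream CSF1R window held the ETS core at 3 places and the RUNX core at 1. Of the ETS cores, 2 adjoined each other, beginning 20 and 14 bases before the start, and 1 began 19 bases after it, while the RUNX core began 71 bases before it. In all 35116 promoter windows of that length, 27.9% held at least 1 ETS core and 13.1% at least 1 RUNX core. The share of windows with 3 ETS cores was not counted. The upstream CSF1R window held 1 AP-1 match, a sequence found in 7.71% of windows, and 1 SP1 match, found in 45% of windows. CSF3R had the TATA box and the RUNX core in its upstream window and the ETS core and the C/EBP part in its downstream one. The TATA box letters were present in 11.5% of windows and the C/EBP part in 5.51%. No TATA box letters were found in either CSF1R window. A match is only a run of letters, and binding was not measured in these data.

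CSF1R had 81, 106 and 82 counts in the vehicle libraries (replicates 1, 2 and 3 in that order here and below) and 585, 222 and 586 counts in the MRT199665 libraries. On the scaled level these were 6.80, 9.09 and 8.35 CPM with vehicle and 44.2, 37.5 and 41.5 CPM with MRT199665. All 3 treated libraries stood above all 3 vehicle libraries, and the lowest treated value was 4.13 times the highest vehicle value. Groups lay apart in this direction for 11.4% of all tested genes, and CSF1R was chosen for its difference. The lower raw count of MRT199665 replicate 2 went with its smaller total, and its level in CPM lay next to those of the other treated libraries. The group means were 41.1 ± 3.35 CPM treated and 8.08 ± 1.17 CPM untreated (SD, n = 3 each), a 5.09-fold higher level and a log2 fold change of 2.35 ± 0.15 (SE of the fit).

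Counting error alone set part of that spread. In vehicle replicate 1 the exact 95% Poisson interval ran from 5.40 to 8.45 CPM, and in vehicle replicate 2 from 7.45 to 11.0 CPM, so these libraries overlap within counting error. In MRT199665 replicate 2, with 222 counts, it ran from 32.7 to 42.8 CPM. The relative SD between libraries was 14.5% with vehicle, where counting alone gives 10.6% on average, and 8.15% with MRT199665, where it gives 4.99%. These intervals cover counting error only.

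Of the 3 tested receptors only CSF1R met an adjusted p under 0.05, a threshold that 1.25% of the 13053 tested genes met, and since it was chosen for this difference nothing is read from that count. Its log2 fold change was the 14th highest of the 13053 tested genes, and the 8th highest among the 9208 that reached 5 CPM in either group. The log2 fold change of CSF1R lay between 2.24 and 2.50 over 15 other scalings, filters, tools and sets of libraries. Without MRT199665 replicate 2 it was 2.41, and without that library and vehicle replicate 2 it was 2.50.

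**Figure D1:**
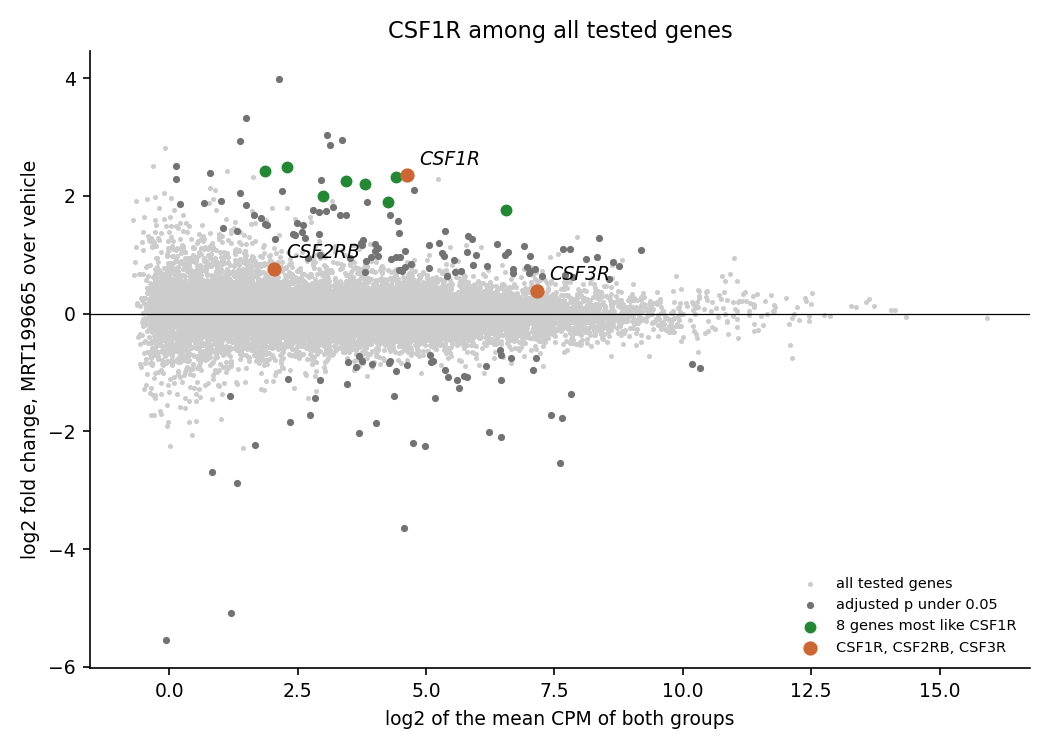
Each point is a tested gene, with the log2 of its mean level in CPM on the x axis and the log2 fold change of MRT199665 over vehicle on the y axis. Dark grey points have an adjusted p under 0.05, orange points are the tested receptors and green points the 8 genes with a profile nearest to that of CSF1R, which lies at 2.35 on the y axis, above CSF2RB at 0.76 and CSF3R at 0.39.

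Few or no counts were found for the ligands of CSF1R. CSF1, the macrophage colony-stimulating factor itself, was listed at 0 counts in each of the 6 libraries. IL34, the alternative ligand, had 2 counts in vehicle replicate 1 and 0 in the other 5 libraries. A count of 0 allows up to 3 counts, which was between 0.213 and 0.507 CPM depending on the library. For IL34 this limit covers the 5 libraries at 0, and its 2 counts in vehicle replicate 1 were 0.168 CPM. A lower level of IL34 in those 5 libraries could not be seen at this depth. For CSF1 the limit holds only if its reads could be counted, which is not known. No fold change was computed for either ligand. In the GENCODE 29 annotation no exon of CSF1 or IL34 overlapped an exon of another gene on either strand. The annotation and the strand setting behind the counts are not given in the sources used here. Of the other proteins that bind IL-34, the phosphatase PTPRZ1 had 1 count in all libraries together and the syndecan SDC1 was listed at 0.

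CSF3R, the receptor of granulocyte colony-stimulating factor, had 1414, 1453 and 1263 counts with vehicle and 2197, 929 and 2323 counts with MRT199665. The levels were 119, 125 and 129 CPM with vehicle and 166, 157 and 165 CPM with MRT199665. No treated library fell among the vehicle libraries, although the lowest treated value was only 1.22 times the highest vehicle value. Among all tested genes, 11.4% had their groups apart in this direction. CSF3R had a mean of 163 ± 4.80 against 124 ± 5.01 CPM (SD, n = 3 per group) and a log2 fold change of 0.39 ± 0.10 (SE), and did not pass the edgeR quasi-likelihood test (Benjamini-Hochberg adjusted p = 0.122 over all tested genes). DESeq2 gave an adjusted p of 0.0613 and limma-voom 0.118, and CSF3R was called in 0 of 15 alternatives.

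CSF2RB, the beta chain shared by the receptors of GM-CSF, interleukin-3 and interleukin-5, had 30, 37 and 34 counts with vehicle and 77, 30 and 65 counts with MRT199665. The levels were 2.52, 3.17 and 3.46 CPM with vehicle and 5.81, 5.07 and 4.61 CPM with MRT199665. Again the groups did not overlap, while the 95% counting intervals of single libraries did, as with 2.24 to 4.38 CPM in vehicle replicate 2 and 3.42 to 7.24 CPM in MRT199665 replicate 2. The mean of CSF2RB was 5.16 ± 0.609 against 3.05 ± 0.484 CPM (SD, n = 3 per group), with a log2 fold change of 0.76 ± 0.22 (SE). It did not pass the test either (edgeR adjusted p = 0.153), and was called in 0 of 15 alternatives.

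CSF2RA, the chain that gives the GM-CSF receptor its specificity, was listed at 0 in all 6 libraries, and this value cannot be read as absence. The gene lies in pseudoautosomal region 1, which is present in the reference on both the X and the Y chromosome. Of 12 other genes of that region, 10 were at 0 in all libraries, and all 12 together had 11 counts. SLC25A6, a mitochondrial ADP/ATP carrier that most cells express, had 9 counts in all, and IL3RA, which lies in the same region, was listed at 0. The level of CSF2RA is therefore unknown here, and so is that of IL3RA.

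The ratio between receptors does not depend on the scaling of the libraries. For each 100 counts of CSF3R there were 5.73, 7.30 and 6.49 counts of CSF1R with vehicle and 26.6, 23.9 and 25.2 with MRT199665. The same ratio for CSF2RB was 2.12, 2.55 and 2.69 with vehicle and 3.50, 3.23 and 2.80 with MRT199665. All treated libraries lay above all vehicle libraries in both ratios, by a wide margin for CSF1R, which was chosen for its difference. For CSF2RB the margin was narrow, 2.69 against 2.80. Counting alone gives its counts a relative SD of 17.3% with vehicle and 14.0% with MRT199665, so this margin lies within counting error. By CPM, 11.4% of all tested genes had their groups apart in the higher direction.

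**Figure D2:**
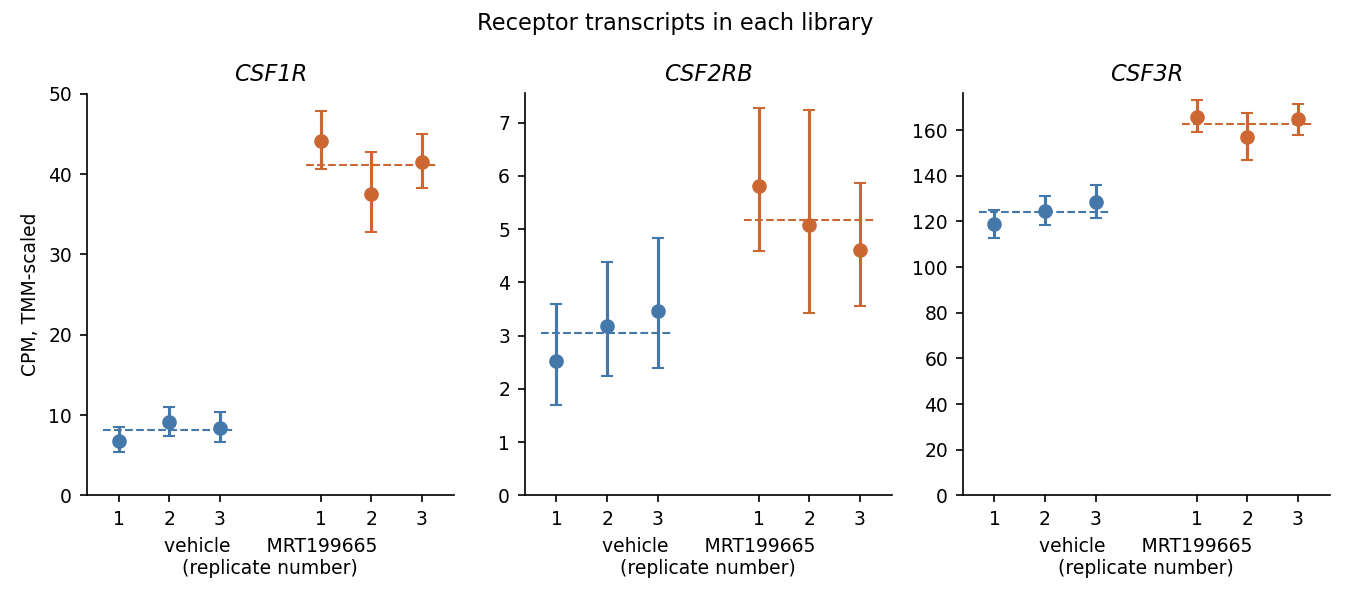
Levels of the 3 tested receptors in each library, in CPM from 0 on the y axis, with vehicle libraries in blue and MRT199665 libraries in orange. Points are libraries, bars their exact 95% Poisson intervals (counting error only) and dashed lines group means, which are 8.08 and 41.1 CPM for CSF1R, 3.05 and 5.16 for CSF2RB and 124 and 163 for CSF3R.

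Genes around CSF1R were described through 6 lists of its pathway, 93 genes in all, of which 71 were tested. Of these 71, 2 rose (TYROBP and SLA) and 0 fell at an adjusted p under 0.05, where 0.850% of all tested genes rose and 0.398% fell. A positive log2 fold change was found for 45 of the 71, against 50.9% of all tested genes, and the median was 0.17 against 0.01 over all tested genes. The groups did not overlap for 19 of the 71 in the higher direction and 4 in the lower, against 11.4% and 10.8% of all tested genes. Leaving out 1 library at a time gave between 0 and 3 higher genes. None of the 71 was higher at the threshold without vehicle replicate 3 or without MRT199665 replicate 3, and 1 was without vehicle replicate 2 or MRT199665 replicate 2.

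In the list of proximal signalling, all 26 genes were tested. TYROBP, an adaptor with an immune tyrosine activation motif that also couples CSF1R to SYK, rose 1.94-fold, from 193, 242 and 216 CPM with vehicle to 446, 401 and 418 CPM with MRT199665 (edgeR adjusted p = 0.00789). It was the only member to pass, and its call ended without vehicle replicate 3 (adjusted p = 0.0971) or MRT199665 replicate 3 (0.0643). The abundant adaptor GRB2 had a log2 fold change of 0.17 ± 0.11 (SE), and the PI3-kinase subunits PIK3CD and PIK3R1 had 0.28 ± 0.18 and 0.11 ± 0.11. By unadjusted p under 0.05, 5 members were higher and 1 lower (7.64% and 7.11% of all tested genes), among them the Src family kinase LYN, named after its values were seen, at 82.4 ± 6.16 CPM with vehicle and 112 ± 5.54 CPM with MRT199665 (SD, n = 3 per group, edgeR adjusted p = 0.111).

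Among 14 negative regulators, 11 were tested. SLA, the Src-like adaptor that lowers surface receptors and Src signalling, rose 2.07-fold (edgeR adjusted p = 0.0263), from 73.0, 51.2 and 65.5 CPM with vehicle to 112, 157 and 126 CPM with MRT199665. Its call ended without vehicle replicate 2 (adjusted p = 0.0645) or 3 (0.142) and without MRT199665 replicate 2 (0.0603) or 3 (0.141). CBL, the ubiquitin ligase that sends activated CSF1R to degradation, had a log2 fold change of 0.00 ± 0.20 (SE). The phosphatase INPP5D was at -0.16 ± 0.11 and the docking protein DOK2 at 0.50 ± 0.15. DESeq2, which called 2.78% of all genes it tested, called 2 members of this list, SLA and the phosphatase PTPN6 (edgeR adjusted p = 0.0912). The suppressors SOCS1 and SOCS3 had 9 and 2 counts in all libraries together.

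CSF1R is cut from the cell surface by ADAM17 and then within the membrane by gamma-secretase. Of 10 genes of this shedding and cleavage list, 8 were tested and none was called by edgeR, DESeq2 or limma-voom. Over all tested genes edgeR called 1.25%. At an unadjusted p under 0.05, 1 was higher and 0 lower (7.64% and 7.11% of all tested genes). APH1A, a gamma-secretase subunit and the most abundant member, was at 680 ± 93.3 CPM with vehicle and 765 ± 69.8 CPM with MRT199665 (SD, n = 3 per group). ADAM10, another membrane protease, had a log2 fold change of 0.03 ± 0.14 (SE).

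Of 18 transcription factors known to act on the CSF1R gene, 15 were tested, and edgeR and limma-voom called 0. Over all tested genes edgeR called 1.25%, so 0 calls in a list this short says little about its members. The groups were apart for 4 in the higher direction and 2 in the lower (11.4% and 10.8% of all tested genes). At an unadjusted p under 0.05, 4 were higher and 1 lower (7.64% and 7.11% of all tested genes). DESeq2, which called 2.78% of all genes it tested, called 1, TFEB (edgeR adjusted p = 0.0700). SPI1, which encodes PU.1, had a log2 fold change of 0.05 ± 0.14 (SE) and RUNX1 of 0.28 ± 0.11. CEBPB, which encodes C/EBP beta, was the gene that was lower at an unadjusted p under 0.05. It stood at 32.7 ± 4.89 CPM with vehicle and 22.8 ± 2.87 CPM with MRT199665 (SD, n = 3 per group). Its groups were apart, as for 10.8% of all tested genes in the lower direction. The log2 fold change of CEBPB was -0.52 ± 0.16 (SE), with an edgeR adjusted p of 0.171. These and TFEB were named for their roles after their values were seen. MYB, a progenitor factor, stood at 909 ± 31.1 CPM with vehicle and 789 ± 21.8 CPM with MRT199665 (SD, n = 3 per group, edgeR adjusted p = 0.438). GFI1, a repressor, had a log2 fold change of -0.45 ± 0.23 and RUNX3 of 0.12 ± 0.11. CEBPA was listed at 0, and its last 500 exonic bases lie wholly under exons of the opposite strand in GENCODE 29, so whether its reads could be counted is not known.

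Of the other type III receptor kinases and their ligands, 10 genes, 6 were tested and none was called by edgeR, DESeq2 or limma-voom. Over all tested genes edgeR called 1.25%. At an unadjusted p under 0.05, 2 were higher and 0 lower (7.64% and 7.11% of all tested genes). FLT3, the receptor of early progenitors, had 14.8, 14.3 and 16.1 CPM with vehicle and 21.7, 27.2 and 18.9 CPM with MRT199665. Its groups did not overlap, as for 11.4% of all tested genes in this direction, and its log2 fold change was 0.57 ± 0.16 (SE, edgeR adjusted p = 0.149). KIT had a mean of 0.526 CPM with vehicle and 1.15 CPM with MRT199665, near the limit of detection. PDGFRB, which RefSeq places beside CSF1R on chromosome 5, had 4.73 CPM in MRT199665 replicate 2 and 1.63 to 2.49 CPM in the other libraries, with a log2 fold change of 0.58 ± 0.36 (edgeR adjusted p = 0.516). The ligand gene PDGFC was at -0.11 ± 0.29.

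Of the 5 genes on each side of CSF1R in the RefSeq order, 5 were tested and edgeR called none, where it called 1.25% of all tested genes. At that share, the lack of a call among so few genes says little about them. Their log2 fold changes were -0.12 for SLC26A2, -0.26 for TIGD6, -0.10 for HMGXB3, 0.58 for PDGFRB and 0.76 for CAMK2A, and CAMK2A had the lowest unadjusted p of them (0.0551, adjusted 0.353).

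Related cytokine receptors and ligands made up the sixth list, with 15 genes, 5 of them tested. The growth factor genes CSF2, CSF3 and IL3 were listed at 0 in all 6 libraries and IL5 had 3 counts in all. IL6R, the interleukin-6 receptor, stood at 128 ± 23.8 CPM with vehicle and 191 ± 13.4 CPM with MRT199665 (SD, n = 3 per group, log2 fold change 0.57 ± 0.15, SE). It was not called by edgeR (adjusted p = 0.119) or limma-voom and was called by DESeq2 (adjusted p = 0.0478). IL6ST, its signalling partner, had a log2 fold change of -0.17 ± 0.26 and IFNGR2 of 0.38 ± 0.39.

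A separate list held 31 genes that macrophages express along with CSF1R, of which 17 were tested. Of these 17, 2 rose and 0 fell (MPEG1 and CCR2), where 0.850% of all tested genes rose and 0.398% fell, and the median log2 fold change was 0.40 against 0.01 over all tested genes. At an unadjusted p under 0.05, 9 were higher and 0 lower (7.64% and 7.11% of all tested genes), and the same numbers had their groups apart (11.4% and 10.8%). DESeq2, which called 2.78% of all genes it tested, called 4 of the 17. The further ones were the fractalkine receptor gene CX3CR1 (adjusted p = 0.0106) and the lipopolysaccharide receptor gene TLR4 (0.0172), named after their values were seen. By edgeR their adjusted p was 0.0937 and 0.0977, and limma-voom called 2 of the 17. CCR2, the receptor for the monocyte chemoattractant CCL2, rose 2.28-fold, from 57.5, 40.4 and 55.4 CPM with vehicle to 101, 126 and 122 CPM with MRT199665 (edgeR adjusted p = 0.0109). Its call ended without vehicle replicate 3 (adjusted p = 0.0709) or MRT199665 replicate 3 (0.0949). MPEG1, a pore-forming protein of macrophages, had 0.671, 0.0858 and 0.814 CPM with vehicle and 8.53, 8.45 and 7.94 CPM with MRT199665 (edgeR adjusted p = 0.00307), so its fold rests on few vehicle counts. MPEG1 was called in 14 of 15 alternatives, and not with the replicate block (edgeR adjusted p = 0.0762). Of the abundant members that did not pass, UCP2 had a log2 fold change of -0.01 ± 0.13 (SE), CTSS of 0.36 ± 0.13 and CD4 of 0.32 ± 0.13. Several markers of mature tissue macrophages were at or near 0, and others were low but counted. Among the latter, named after their values were seen, TREM2 had 45 counts in all. VSIG4 and MSR1 had 91 and 124, and were tested but not called. CD68, MRC1, C1QA and C1QB were listed at 0 in all libraries, and CD163, SIGLEC1 and C1QC had 1, 2 and 4 counts in all. Of the exonic bases of CD68, 81.7% overlap another gene on the same strand in GENCODE 29, so its 0 may not show absence. For MRC1, C1QA and C1QB it is not known either whether their reads could be counted.

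**Figure D3:**
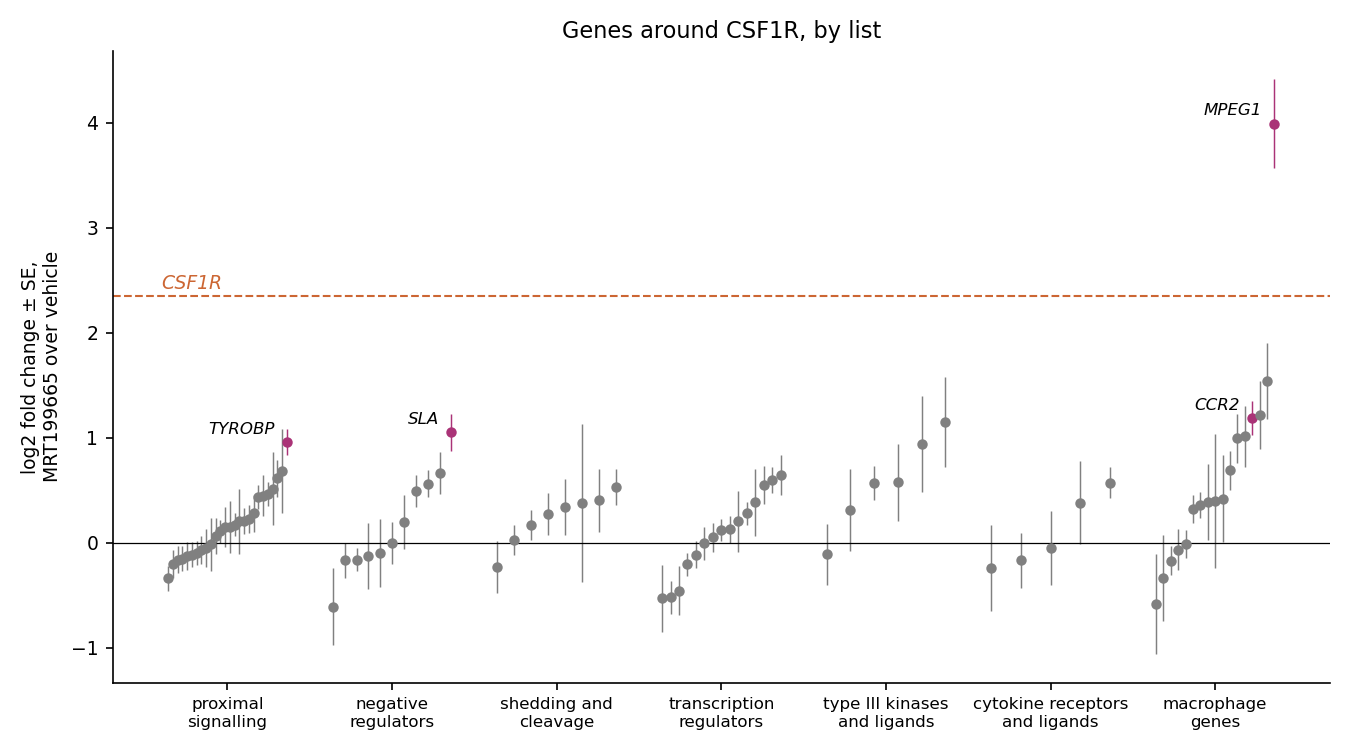
Points are the tested genes of the 6 pathway lists and of the macrophage list on the x axis, with the log2 fold change of MRT199665 over vehicle and its SE on the y axis. Purple points passed an adjusted p under 0.05 (TYROBP, SLA, CCR2 and MPEG1), and only MPEG1 lies above the dashed line at 2.35, the value of CSF1R.

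The genes whose profile over the 6 libraries was nearest to that of CSF1R were found among 8603 genes. These were the genes with at least 5 CPM in either group, less CSF1R itself and those named only by a clone, by a LOC, LINC or MIR symbol or as an open reading frame. Likeness was the root mean square difference between log2 CPM values centred per gene, which takes in the size of the change as well as its shape. The nearest was CNR2, the cannabinoid receptor of immune cells, at 0.0785, with 0.923, 1.29 and 1.22 CPM with vehicle and 7.02, 5.07 and 6.24 CPM with MRT199665. MYOM1, a sarcomere protein gene, followed at 0.141, with 2.68, 4.80 and 3.87 against 20.1, 14.9 and 19.1 CPM. Like CSF1R, both were highest in MRT199665 replicate 1 and lowest of the treated libraries in replicate 2.

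The other 6 were HLA-DMB (0.200) and HLA-DRA (0.230) of antigen presentation, the leukocyte actin-binding gene LSP1 (0.251), the metalloprotease gene ADAM28 (0.266), the myeloid receptor gene CD300LB (0.280) and SAMHD1 (0.321), which breaks down deoxynucleotides. SAMHD1 was the most abundant, at 41.2, 41.9 and 45.3 CPM with vehicle and 149, 124 and 160 CPM with MRT199665. HLA-DRA and LSP1 were highest in MRT199665 replicate 2, unlike CSF1R. Over 6 libraries Pearson's r with CSF1R lay between 0.975 and 0.998 for these 8 genes. It is given as a description, since the difference between 2 groups of 3 libraries makes most of it. Ranking by r in place of the difference kept 2 of the 8, CNR2 and HLA-DMB, and put FAM43A first, a gene with a log2 fold change of 0.93.

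**Figure D4:**
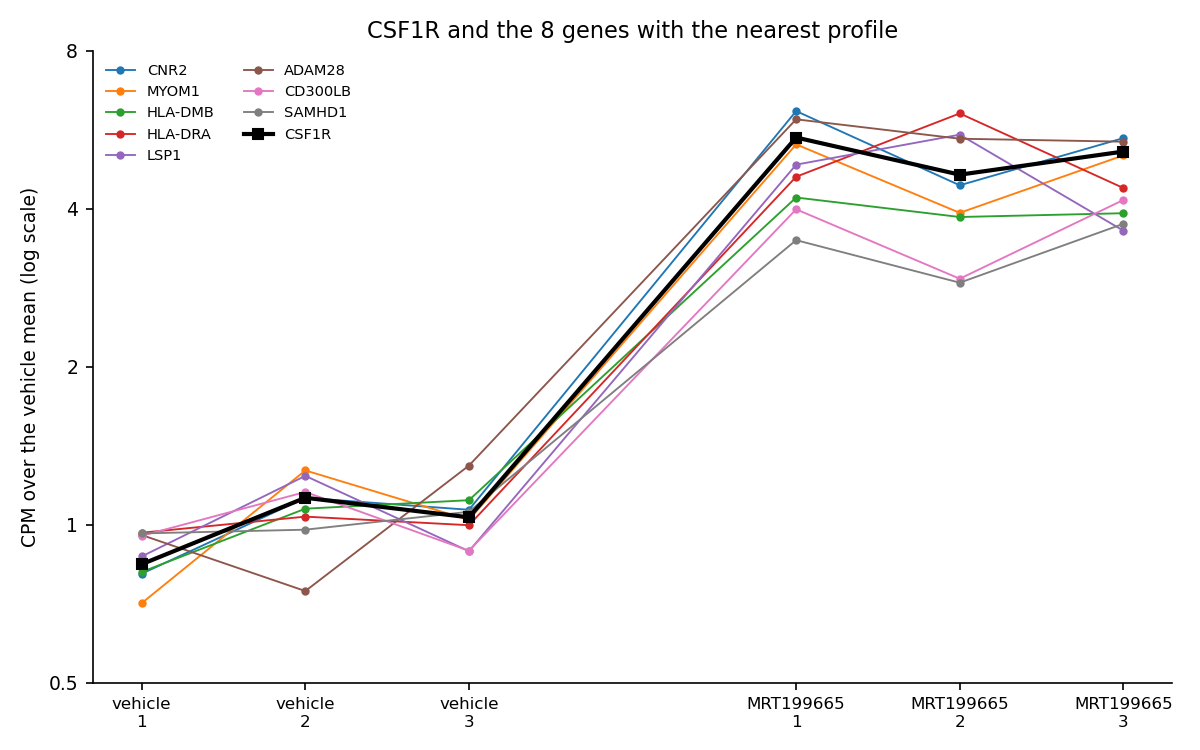
Level of CSF1R (black squares) and of the 8 genes with the nearest profile in each library (x axis), as CPM divided by the gene's vehicle mean on a log scale (y axis). All 9 genes lie near 1 in the vehicle libraries, and in the treated libraries CSF1R lies between the higher ADAM28 and the lower SAMHD1.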

How the data were processed

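The authors deposited raw counts per gene symbol for 6 libraries, whole numbers that differ in total. The submitters' processing notes name the hg19 build, the aligner STAR (2.4), the counter HTSeq (0.6.1) and DESeq2. The annotation and strand setting are not given in the sources used here. Groups and replicate numbers came from the labels. Libraries of a group differed by a chi-square per degree of freedom of at least 8.59, so none was treated as a copy of another.

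Genes were filtered with filterByExpr (minimum count 10, total 15), scaled by TMM and tested by the quasi-likelihood F test of edgeR (4.0.16, under R 4.3.3), two-sided and with group alone in the model, with Benjamini-Hochberg adjustment over all tested genes and calls under 0.05. SE is the absolute log2 fold change over the root of F. CPM are counts per 1000000 of TMM-scaled totals of the tested genes. Profiles used log2 CPM with a prior count of 2. The test was checked on simulated data. Alternatives were other scalings and filters, DESeq2 1.42.0, limma-voom (limma 3.58.1), a replicate block and leaving out libraries.

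The members and lists were chosen with earlier results of these data known. The text names the members, every called gene of each list, up to 3 uncalled tested genes of each list with the highest mean CPM, the 8 genes nearest to CSF1R and the neighbours of CSF1R in the RefSeq order, besides those said to be named afterwards. Neighbour order and promoter sequences are from RefSeq (GRCh38.p14). Apart from those of the promoter windows, coordinates are not given, since the counts are on another build.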

Additional observations from a re-analysis of the deposited data

How the results depend on the processing

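The log2 fold change of CSF1R stayed between 2.24 and 2.50 over all 15 alternatives, and those of CSF2RB (0.64 to 0.86) and CSF3R (0.36 to 0.42) kept their direction and missed the threshold in all 15. Counts of called genes moved more. Over all genes, 111 were higher and 52 lower, against 373 and 271 without a low-count filter and 217 and 146 with DESeq2. Of the pathway genes, 2 were higher, against 5 without the filter and 5 with DESeq2. Leaving out 1 library at a time gave 29 to 78 higher and 20 to 55 lower genes in all, and 0 to 3 higher pathway genes. Same-numbered libraries' deviations from their group means had correlations of -0.55, -0.47 and 0.02, and those of differently numbered libraries ran from -0.10 to 0.53. Deviations from a mean of 3 libraries depend on each other, so these values cannot decide whether the replicate numbers paired the libraries. With the replicate block, 7 genes were higher and 5 lower in all, 0 pathway genes were higher, and CSF1R had a log2 fold change of 2.35. The block ended the calls of TYROBP (edgeR adjusted p = 0.166), SLA (0.282), CCR2 (0.166), MPEG1 (0.0762) and CEACAM6 (0.255). Leaving out the libraries at either end of the main component of variance, MRT199665 replicate 2 and vehicle replicate 2 (chosen after seeing the data), gave CSF1R 2.50. Depth limits IL34 and KIT, and the loss of calls was not traced to a cause (the cause was not tested).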
